A study of Mus musculus with 28 samples.

Results

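The genes described here encode 8 mouse KRAB zinc finger proteins whose genomic targets are known from earlier work: Zfp57, Zfp445, Zfp809, Zfp932, Gm15446, Zfp708, Zfp568 and Zfp819. They were chosen by name, not by a measured value, and were found in the gene counts through Ensembl identifiers. Because the symbol Zfp708 is carried by 2 Ensembl identifiers, the 8 genes have 9 gene records among the 37991 that were counted, and all 9 are among the 20321 that had enough reads to be tested. RNA-seq was done on J1 embryonic stem (ES) cells of the strain 129S4/SvJae, grown on gelatin with LIF and both 2i inhibitors. The cells were wild type (WT), carried a knockout of Dnmt1, Dnmt3a and Dnmt3b (DNMT TKO), or carried a knockout of Tet1, Tet2 and Tet3 (TET TKO). All cells were transduced with a lentiviral hairpin vector, either empty (shEmpty) or directed against Kap1 (shKap1), selected with puromycin and collected after 5 days. There were 3 libraries for each hairpin in WT, 3 in DNMT TKO and 2 in TET TKO, 16 RNA libraries of the 28 samples in the series. The rest are ChIP-seq of H3K4me3 and H3K27me3 and 5-hydroxymethylcytosine (5hmC) immunoprecipitation with its inputs, all in WT cells. Each genotype stands for a single line, so genotype and line cannot be told apart. The study's methods describe the RNA replicates as coming from independent experiments, and the p-values measure the spread between them.

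KRAB zinc finger proteins bind DNA through an array of zinc fingers, each protein with its own sequence preference. Their KRAB domain binds KAP1 (the product of Trim28), a scaffold for the histone methyltransferase SETDB1, which places H3K9me3, the mark of silent heterochromatin. In ES cells this system holds down endogenous retroviruses (ERVs), whose long terminal repeats (LTRs) can act as promoters, and protects the methylated allele of imprinting control regions. DNMT enzymes methylate CpG cytosines, and TET enzymes oxidise that methylation to 5hmC.

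The knockdown hairpin does not match any of the 8 genes. Its 21-base sense arm is found in 1 protein-coding transcript, that of Trim28. The study's list of hairpins also holds one named for Zfp932, which was not used in these RNA libraries. It is shown because its arm is found in 4 transcripts of 3 genes, Zfp932, Gm15446 and 5430403G16Rik. Both arms are printed 5′ to 3′ as DNA.
shKAP1 sense arm: ccgcatgttcaaacagttcaa
shZfp932 sense arm: cctctcatggtcaacttcaaa

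The 16 RNA libraries held 18108431 to 29373696 reads on genes. Trim28 lay at 1626 to 1991 CPM (counts scaled to a common library size with the TMM method) in WT shEmpty and at 149 to 190 in WT shKap1, at 1771 to 1898 and 163 to 168 in TET TKO, and at 1701 to 2085 and 327 to 506 in DNMT TKO. The knockdown was therefore weaker in DNMT TKO, where Trim28 fell by 2.13 on the log2 scale against 3.41 in WT (difference 1.28, adjusted p = 0.00080). Without knockdown, Dnmt1, Dnmt3a and Dnmt3b were lower in DNMT TKO (156, 7.65 and 25.2 CPM, against 490, 63.0 and 156 in WT). Tet1 and Tet2 were lower in TET TKO (233 and 91.1 CPM, against 654 and 408), but Tet3 was not (13.8 against 13.9 CPM). With knockdown in WT, Tet3 rose by 1.80 ± 0.14 log2 (adjusted p = 1.8e-08) and Dnmt3a by 1.15 ± 0.134 (adjusted p = 5.2e-06). The Tet3 effect was smaller in DNMT TKO (difference -1.67, adjusted p = 1.3e-05) and in TET TKO (-1.30, adjusted p = 0.0012). The summed level of 7 pluripotency markers was 3640 to 3890 CPM without knockdown and 2200 to 2820 with it. Single markers did not all follow the sum. Without knockdown, Zfp42 averaged 654 CPM in DNMT TKO and 129 in WT, and Klf4 192 and 326. With knockdown, Pou5f1 went from 838 to 773 CPM in WT and from 788 to 834 in TET TKO. The sum of 5 markers of the 2-cell-like state was 5.64 to 22.9 CPM without knockdown. With knockdown the 2-cell-like sum reached 184 to 204 CPM in WT, 55.1 to 127 in DNMT TKO and 543 to 563 in TET TKO. Summed markers of fibroblasts, endoderm, mesoderm and trophoblast stayed at or below 26.5 CPM. The sum of 5 fibroblast markers was 3.28 to 4.23 CPM in WT shEmpty and highest in DNMT TKO shKap1, at 10.8 to 11.6. Of these markers Col3a1 and Postn were at or near 0, while Col1a1 and Thy1 averaged 5.76 and 4.44 CPM in DNMT TKO shKap1. The Trim28 level and the marker sums thus moved with the contrasts below, and their part in those results was not tested. In bulk RNA, fewer cells that express a gene and less RNA per cell cannot be told apart.

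In WT shEmpty cells the 8 genes spanned about 2 orders of magnitude per length. Zfp57 was by far the highest, at 222 ± 18.2 RPKM (CPM per kilobase of counted exon, mean ± SD, n = 3), followed by Zfp568 at 41.0 ± 0.494 and Zfp445 at 33.5 ± 1.09. Zfp809 (15.95 ± 1.21 RPKM, libraries at 15.2 to 17.3) and Zfp819 (13.3 ± 3.23 RPKM, 11.2 to 17.0) overlapped in their libraries, so their order is not resolved. They were followed by Zfp932 at 10.2 ± 0.807 RPKM, Gm15446 at 4.23 ± 0.203, the longer Zfp708 record at 2.90 ± 0.156 and the second Zfp708 record at 2.32 ± 0.328. Apart from Zfp809 and Zfp819, no neighbours in this order overlapped. The order was not fixed. In WT shKap1 cells Zfp809 lay at 42.4 to 48.2 RPKM, above Zfp445 (39.1 to 42.3) and Zfp568 (37.0 to 41.2), and in DNMT TKO shKap1 cells it reached 60.8 to 88.1 RPKM, still below Zfp57 at 117 to 162.

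**Figure D1:**
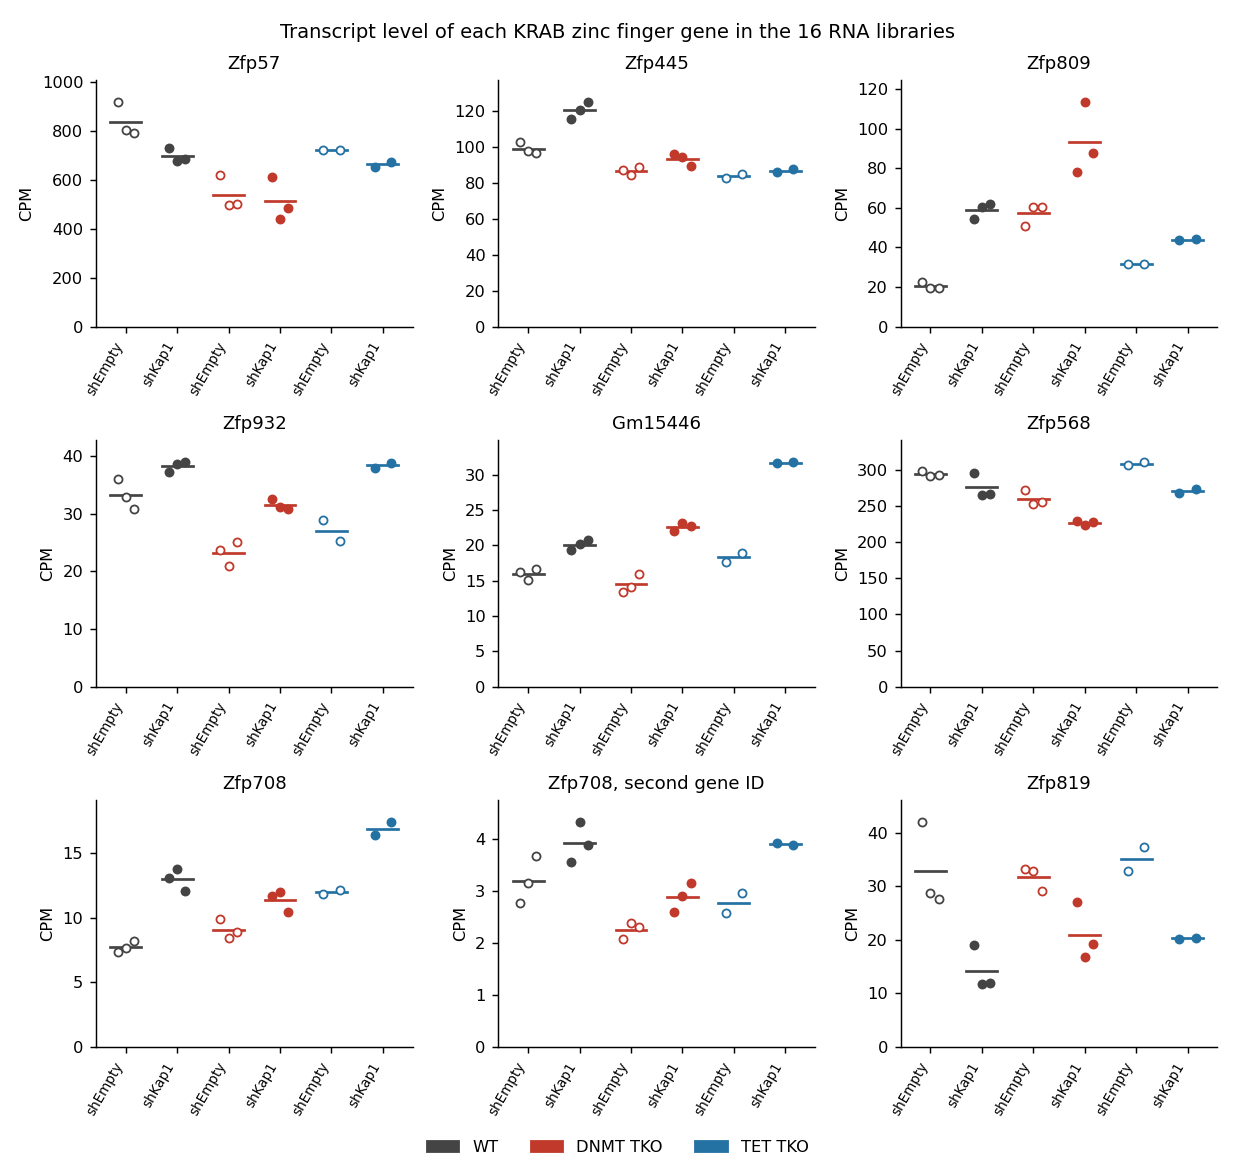
Level of each gene record in every RNA library, in CPM on axes that start at 0, by genotype and hairpin (points are libraries, lines are group means). Zfp809 is lowest in the 3 WT shEmpty libraries (19.5 to 22.3 CPM) and Zfp819 is lower with the Kap1 hairpin than without it in every genotype, while Zfp568 and Zfp445 move little.

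The test compares 3 kinds of contrast: the hairpin effect within each genotype, the difference of that effect between a knockout and WT, and each knockout against WT without knockdown. A gene was called when its adjusted p (edgeR quasi-likelihood test, Benjamini-Hochberg over all 20321 records) was below 0.05 and its change was at least 2-fold. "Rose" and "fell" are used for changes with such an adjusted p, with or without the 2-fold change. The contrasts share libraries, the WT shEmpty libraries in particular, so values are set side by side and not correlated.

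Zfp57 binds methylated imprinting control regions and keeps them methylated through KAP1. It was the most highly expressed of the 8 and did not rise in any contrast. In WT, the 3 shEmpty libraries lay at 919, 806 and 794 CPM and the 3 shKap1 libraries at 731, 679 and 686. In DNMT TKO they lay at 619, 497 and 502 CPM without knockdown and at 612, 442 and 486 with it. In TET TKO they lay at 724 and 724 CPM without knockdown and at 655 and 673 with it. Every WT shEmpty library was thus above every WT shKap1 library, while the DNMT TKO groups overlapped. The WT knockdown change was -0.26 ± 0.105 log2 (± SE throughout for log2 changes, adjusted p = 0.052), and it passed the threshold when the replicate number was added as a block (adjusted p = 0.0074), with limma-voom (0.033) and in a fit of the WT libraries alone (0.013). Changes in DNMT TKO (-0.07, adjusted p = 0.65) and TET TKO (-0.12, adjusted p = 0.53) did not pass. The first of these reached -0.23 with an adjusted p of 0.048 without DNMT TKO shKap1 replicate 1. Replicate 1 was the highest library of both DNMT TKO groups, and that fit kept it in shEmpty only. Without DNMT TKO shEmpty replicate 1 instead, the change was 0. Without knockdown, Zfp57 fell by 0.64 ± 0.105 log2 in DNMT TKO (840 ± 69.0 to 540 ± 69.2 CPM, adjusted p = 0.00015). In TET TKO without knockdown the change of -0.21 did not pass (adjusted p = 0.21), but it did with the replicate block (-0.24, adjusted p = 0.041), although the numbers were not taken to pair the TET TKO libraries.

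Zfp445 acts beside Zfp57 at imprinting control regions. Its WT shEmpty libraries lay at 103, 98.1 and 96.7 CPM and its WT shKap1 libraries at 116, 121 and 125, with no overlap. DNMT TKO libraries were at 87.4, 84.3 and 89.0 CPM without and at 96.0, 94.3 and 89.3 with knockdown. TET TKO libraries were at 82.9 and 85.3 CPM without and at 86.2 and 87.6 with knockdown. The separation between hairpins was widest in WT. Zfp445 rose by 0.28 ± 0.0509 log2 in WT (adjusted p = 0.00020), and the changes of 0.10 in DNMT TKO (adjusted p = 0.14) and 0.05 in TET TKO (adjusted p = 0.63) did not pass. The knockouts were not shown to differ from WT in this effect (-0.18, adjusted p = 0.096, and -0.23, adjusted p = 0.079), although the DNMT TKO difference passed in 5 of 12 fits that left out 1 library (adjusted p 0.024 to 0.050), with DESeq2's size factors (0.048) and with its Wald test (0.015). The TET TKO difference passed with the Wald test (0.028). Without knockdown it fell by 0.19 ± 0.051 in DNMT TKO (adjusted p = 0.0052) and by 0.24 ± 0.0572 in TET TKO (adjusted p = 0.0043). These calls were lost without DNMT TKO shEmpty replicate 2 (0.052) and without TET TKO shEmpty replicate 1 (0.064), respectively, and that of DNMT TKO also in a fit of only the 2 groups compared (0.055).

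Zfp809 recognises the proline tRNA primer binding site of gammaretroviruses and of VL30 elements, and is known for silencing murine leukaemia virus in ES cells. It was the only one of the 8 genes whose level rose at least 2-fold, and it did so with Kap1 knockdown in WT and, separately, without knockdown in DNMT TKO. The WT shEmpty libraries lay at 22.3, 19.7 and 19.5 CPM and the WT shKap1 libraries at 54.6, 60.5 and 62.0. The DNMT TKO libraries lay at 51.1, 60.3 and 60.2 CPM without knockdown and at 78.2, 113 and 87.7 with it. The TET TKO libraries lay at 31.7 and 31.7 CPM without knockdown and at 43.6 and 44.1 with it. All WT shEmpty libraries were below every other library, and shKap1 lay above shEmpty without overlap in each genotype. DNMT TKO cells with the empty vector already stood at the level of WT cells with the Kap1 hairpin. In WT the rise was 2.88-fold (1.53 ± 0.114 log2, adjusted p = 1.1e-08). It was 0.70 ± 0.107 in DNMT TKO (adjusted p = 7.2e-05) and 0.47 ± 0.135 in TET TKO (adjusted p = 0.014). The effect was smaller than in WT by 0.83 ± 0.155 log2 in DNMT TKO (adjusted p = 0.0011) and by 1.06 ± 0.176 in TET TKO (adjusted p = 0.0010). Leaving out DNMT TKO shKap1 replicate 2, the library at 113 CPM, moved the former from -0.83 to -1.03, past 2-fold. With any single one of the 4 TET TKO libraries left out, 1 library remained in its group. The TET TKO rise then no longer passed but stayed at 0.47 to 0.49 log2. Without knockdown Zfp809 rose by 1.48 ± 0.113 in DNMT TKO (20.5 ± 1.55 to 57.2 ± 5.29 CPM, adjusted p = 1.6e-08) and by 0.63 ± 0.125 in TET TKO (adjusted p = 0.0011). The rise in WT stayed between 1.49 and 1.60 log2 whichever library was left out.

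The Zfp809 gene lies on the plus strand of chromosome 9 (mm9, 22030274 to 22047641). Its first RefSeq promoter sequence (GRCm38.p6, found once in mm9) lies inside an H3K4me3 region around the gene start and holds 11 CpGs. It is shown because expression rose in cells without DNA methyltransferases, and its CpGs are in capitals. Of the 32851 promoters of 27025 genes in that collection, 58.6% hold fewer than 11 CpGs, and the median is 7. Methylation at these CpGs was not analysed here.
Zfp809 promoter, chr9:22029897-22030196, plus strand: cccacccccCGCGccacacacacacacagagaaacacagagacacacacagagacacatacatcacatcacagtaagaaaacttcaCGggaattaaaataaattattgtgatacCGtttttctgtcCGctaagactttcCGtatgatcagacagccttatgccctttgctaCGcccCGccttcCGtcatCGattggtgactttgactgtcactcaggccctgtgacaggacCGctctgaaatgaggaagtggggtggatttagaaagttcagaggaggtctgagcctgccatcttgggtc

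Zfp932 and Gm15446 are neighbours on chromosome 5 that arose by duplication. Both proteins bind ERVK elements, among them IAP-d and MMERVK10C. Of the 2777 windows of 100 bases in the exons of Zfp932, 18.7% occur unchanged in Gm15446, so part of their reads cannot be assigned to 1 of them when only uniquely mapped reads are kept. For Gm15446, the WT libraries lay at 16.2, 15.1 and 16.6 CPM with shEmpty and at 19.3, 20.3 and 20.8 with shKap1. DNMT TKO libraries lay at 13.4, 14.1 and 15.997 CPM and, with knockdown, at 21.998, 23.1 and 22.8. TET TKO libraries lay at 17.7 and 18.96 CPM and, with knockdown, at 31.6 and 31.8. The knockdown libraries were higher without overlap in every genotype. Gm15446 rose by 0.33 ± 0.0838 log2 in WT (adjusted p = 0.0032), by 0.64 ± 0.0834 in DNMT TKO (adjusted p = 1.1e-05) and by 0.79 ± 0.0999 in TET TKO (adjusted p = 8.7e-06). The TET TKO effect was larger than that in WT by 0.46 ± 0.13 (adjusted p = 0.033). This difference was lost in 9 of the 10 fits that left out 1 library (adjusted p 0.052 to 0.15) and held only without WT shEmpty replicate 2. The DNMT TKO difference of 0.31 did not pass (adjusted p = 0.080). Neither knockout changed Gm15446 beyond the threshold without knockdown (-0.14, adjusted p = 0.20, and 0.20, adjusted p = 0.13).

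Zfp932 lay at 36.0, 32.9 and 30.8 CPM in WT shEmpty and at 37.2, 38.5 and 38.9 in WT shKap1. In DNMT TKO it lay at 23.7, 20.9 and 25.1 CPM and with knockdown at 32.5, 31.2 and 30.9. In TET TKO it lay at 28.9 and 25.2 CPM and with knockdown at 38.0 and 38.9. Knockdown brought the TET TKO libraries to the range of WT with knockdown, whereas those of DNMT TKO stayed below it. The rise was 0.20 ± 0.0802 log2 in WT (adjusted p = 0.047), 0.44 ± 0.0815 in DNMT TKO (adjusted p = 0.00040) and 0.51 ± 0.0985 in TET TKO (adjusted p = 0.00069). The WT call was lost in 4 of 6 fits without 1 library (shEmpty replicate 2 or 3, shKap1 replicate 2 or 3, adjusted p 0.088 to 0.20). The effects in the knockouts were not shown to differ from that in WT (0.24, adjusted p = 0.17, and 0.30, adjusted p = 0.15). Without knockdown Zfp932 fell by 0.52 ± 0.0813 in DNMT TKO (adjusted p = 5.2e-05) and by 0.30 ± 0.0903 in TET TKO (adjusted p = 0.021). The TET TKO fall was lost without TET TKO shEmpty replicate 2 or WT shEmpty replicate 1 (adjusted p 0.074 to 0.24), and in a fit of only the 2 groups compared (0.052).

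Zfp708 binds RMER19B, an LTR family, and is known for keeping such elements methylated in early embryos. The longer record, ENSMUSG00000058883, lay at 7.39, 7.68 and 8.21 CPM in WT shEmpty and at 13.1, 13.8 and 12.0 in WT shKap1. DNMT TKO libraries lay at 9.90, 8.42 and 8.87 CPM and with knockdown at 11.7, 12.0 and 10.5. TET TKO libraries lay at 11.8 and 12.1 CPM and with knockdown at 16.4 and 17.4. WT shEmpty was the lowest group, and knockdown groups lay above their controls without overlap. The rise was 0.74 ± 0.105 log2 in WT (1.67-fold, adjusted p = 1.6e-05), 0.33 ± 0.104 in DNMT TKO (adjusted p = 0.018) and 0.50 ± 0.123 in TET TKO (adjusted p = 0.0051). The DNMT TKO rise was lost in 4 of 6 fits without 1 library (shEmpty replicate 2 or 3, shKap1 replicate 1 or 2, adjusted p 0.058 to 0.12), without the filter on reads (0.058) and in a fit of only the DNMT TKO libraries (0.075). The difference from WT was -0.41 in DNMT TKO (adjusted p = 0.066) and -0.24 in TET TKO (adjusted p = 0.40). The former passed in 4 of 12 fits without 1 library (0.037 to 0.048), with DESeq2's size factors (0.044) and with DESeq2's Wald test (0.028). Without knockdown, Zfp708 rose by 0.62 ± 0.115 in TET TKO (adjusted p = 0.00049), and its change of 0.22 in DNMT TKO did not pass (adjusted p = 0.11).

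The second Zfp708 record, ENSMUSG00000074824, shares none of its 812 windows of 100 exon bases with the first. Its libraries held 2.78, 3.17 and 3.68 CPM in WT shEmpty and 3.56, 4.33 and 3.89 in WT shKap1, which overlapped. In DNMT TKO they held 2.08, 2.38 and 2.31 CPM and with knockdown 2.59, 2.92 and 3.15. In TET TKO they held 2.57 and 2.97 CPM and with knockdown 3.94 and 3.90. The groups separated by hairpin in both knockouts, at levels resting on 152 to 243 reads per group. None of the knockdown changes passed (0.28, 0.35 and 0.50 log2, adjusted p 0.16, 0.12 and 0.065), but that of TET TKO did with limma-voom (0.047), with the replicate block (0.049, with numbers not taken to pair the TET TKO libraries) and in a fit of the TET TKO libraries alone (0.019). Without knockdown it fell by 0.51 ± 0.166 in DNMT TKO (adjusted p = 0.019), a call lost without WT shEmpty replicate 3 or DNMT TKO shEmpty replicate 1 or 3 (adjusted p 0.052 to 0.11), without the filter on reads (0.056) and in a fit of only the 2 groups compared (0.074).

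Zfp568 represses a placental promoter of the growth factor gene Igf2 and is needed in early embryos. WT shEmpty libraries lay at 298, 291 and 293 CPM and WT shKap1 libraries at 296, 266 and 267. DNMT TKO libraries lay at 272, 253 and 256 CPM and with knockdown at 229, 224 and 228. TET TKO libraries lay at 307 and 311 CPM and with knockdown at 268 and 274. The hairpin groups overlapped in WT and were separate in both knockouts. Its changes were small. It fell by 0.20 ± 0.0492 log2 in DNMT TKO (adjusted p = 0.0041) and by 0.19 ± 0.0601 in TET TKO (adjusted p = 0.025). With any single one of the 4 TET TKO libraries left out, 1 library remained in its group. The TET TKO fall then no longer passed, with changes of -0.19 to -0.16 log2. In WT the change of -0.09 did not pass (adjusted p = 0.14) except without WT shKap1 replicate 1, the library at 296 CPM (-0.12, adjusted p = 0.047). The effect was not shown to differ between genotypes (adjusted p 0.33 and 0.51). Without knockdown Zfp568 fell by 0.18 ± 0.0491 in DNMT TKO (adjusted p = 0.0071), a call lost without DNMT TKO shEmpty replicate 2 (0.062), and its change of 0.07 in TET TKO did not pass (adjusted p = 0.39).

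Igf2, the known target of ZFP568 and also an imprinted gene, changed far more than Zfp568 itself. With Kap1 knockdown it rose by 3.02 ± 0.231 log2 in WT (adjusted p = 2.4e-07), by 4.61 ± 0.306 in DNMT TKO (1.5e-07) and by 1.71 ± 0.26 in TET TKO (0.00025). Without knockdown its change from WT was -2.998 ± 0.328 log2 in DNMT TKO (adjusted p = 7.6e-06) and 1.38 ± 0.249 in TET TKO (0.0011). The reads are counted per gene, so the placental promoter's share of them was not measured.

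Zfp819 was the only one of the 8 genes that fell at least 2-fold with Kap1 knockdown. Its WT shEmpty libraries lay at 41.9, 28.7 and 27.7 CPM and its WT shKap1 libraries at 18.98, 11.7 and 11.8. DNMT TKO libraries lay at 33.2, 32.9 and 29.1 CPM and with knockdown at 27.04, 16.7 and 19.1. TET TKO libraries lay at 32.9 and 37.3 CPM and with knockdown at 20.2 and 20.3. Knockdown libraries were lower without overlap in every genotype. Replicate 1 was the highest of its group in both WT groups and both DNMT TKO groups. A fit that leaves out a single replicate 1 library keeps the other one of its pair. The fall was 2.30-fold in WT (-1.20 ± 0.215 log2, adjusted p = 0.00039). It was -0.60 ± 0.207 in DNMT TKO (adjusted p = 0.038) and -0.79 ± 0.254 in TET TKO (adjusted p = 0.030). Without WT shEmpty replicate 1 the WT fall was 0.98 log2, under 2-fold, and without other libraries it reached -1.45, always past the adjusted p threshold. The DNMT TKO fall was lost in 4 of 6 fits without 1 library (shEmpty replicate 1 or 2, shKap1 replicate 2 or 3, 0.073 to 0.11). The TET TKO fall no longer passed with any single one of its libraries left out, which left 1 in that group. Its change then lay between -0.87 and -0.68 log2. The effects in the knockouts were not shown to differ from WT (0.60, adjusted p = 0.19, and 0.41, adjusted p = 0.51), although that of DNMT TKO passed without WT shKap1 replicate 1 (0.82, 0.048). Without knockdown it did not differ between WT and either knockout beyond the spread (adjusted p = 0.90 and 0.79).

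The Zfp819 gene lies on chromosome 7 (mm9, 50862539 to 50873655, plus strand). Its RefSeq promoter is the richest in CpGs of the 12 promoter sequences found for 7 of the 8 genes, with 20 CpGs in 300 bases and an observed over expected CpG ratio of 1.05, higher than that of 96.4% of all promoters in the collection. The other members' promoters hold 4 to 11 CpGs. It is shown, with CpGs in capitals, as the contrast to the promoters of Zfp809 and Gm15446, and it lies inside an H3K4me3 region.
Zfp819 promoter, chr7:50862289-50862588, plus strand: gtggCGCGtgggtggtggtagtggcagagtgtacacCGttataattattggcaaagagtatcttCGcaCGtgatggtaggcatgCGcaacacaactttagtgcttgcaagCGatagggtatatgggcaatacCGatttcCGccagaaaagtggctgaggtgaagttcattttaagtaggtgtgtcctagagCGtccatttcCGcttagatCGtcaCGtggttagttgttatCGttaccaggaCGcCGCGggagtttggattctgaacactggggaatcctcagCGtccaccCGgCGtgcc

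Counts over the 9 records are set here beside the share of all tested records. With knockdown in WT, 1 record was called up and 1 down, where 10.8% of all records were called up and 6.54% down (17.4% in either direction). By adjusted p alone 5 of the 9 rose and 1 fell, where 23.0% of all records rose and 22.7% fell (45.7% in either direction). The median change of the 9 was 0.28 log2 against -0.01 over all records. In DNMT TKO none of the 9 was called at 2-fold, where 10.1% of all were called up and 2.41% down (12.5%). By adjusted p 4 rose and 2 fell (19.7% and 15.6% of all, 35.3% together), with a median of 0.33 against 0.02. In TET TKO again none was called at 2-fold (8.05% up and 4.46% down of all, 12.5% together). There 4 rose and 2 fell by adjusted p (15.3% and 15.1% of all, 30.4% together), with a median of 0.47 against -0.01.

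For the difference of the knockdown effect between DNMT TKO and WT, none of the 9 passed at 2-fold (4.66% of all upward, 2.48% downward, 7.14% together). By adjusted p it passed for Zfp809 downward (7.77% of all) and for none upward (10.6% of all, 18.4% together). Between TET TKO and WT it passed at 2-fold for Zfp809 downward (2.13% of all, against 2.08% upward and 4.21% together). By adjusted p it passed for Zfp809 downward (5.06% of all) and for Gm15446 upward (4.64% of all, 9.69% together). Without knockdown in DNMT TKO, Zfp809 was called up (8.23% of all at 2-fold) and none down (8.05% of all, 16.3% together). By adjusted p 1 record rose and 5 fell there (20.5% and 23.1% of all, 43.6% together). In TET TKO without knockdown none was called at 2-fold (5.66% of all up and 4.80% down, 10.5% together), and 2 rose and 2 fell by adjusted p (14.1% and 13.1% of all, 27.2% together).

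**Figure D2:**
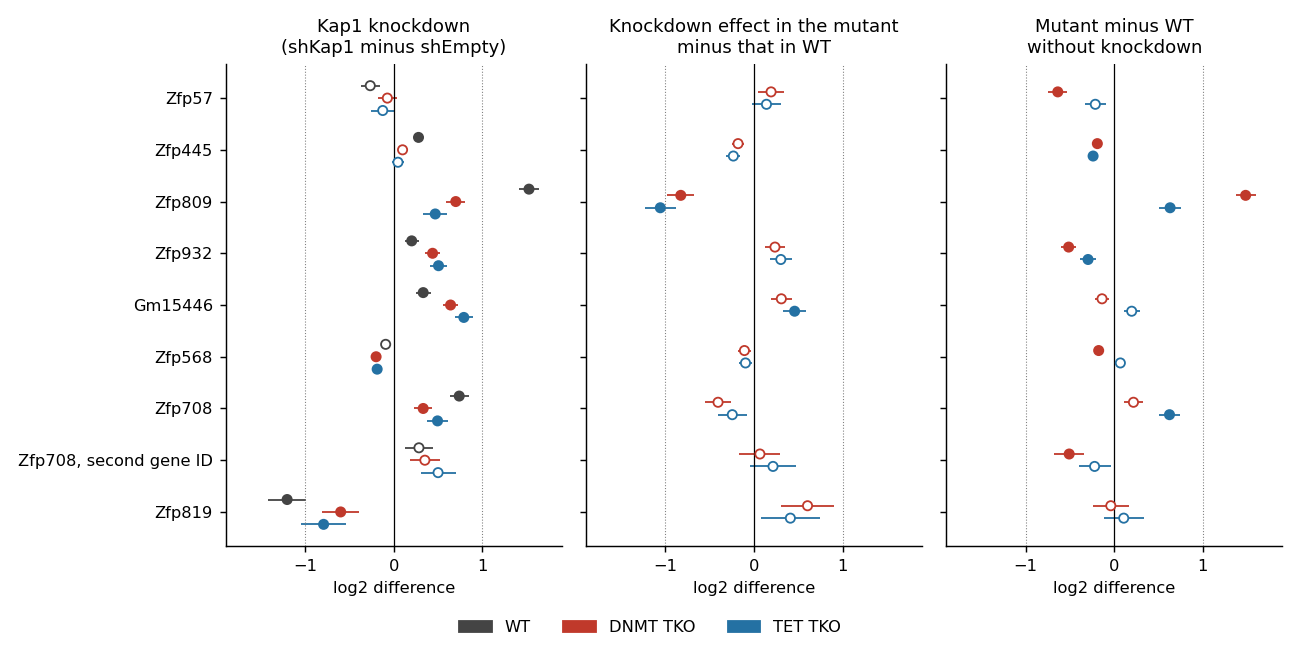
Log2 difference (x axis) of each gene record in 3 panels: Kap1 knockdown within each genotype, the knockdown effect in a knockout minus that in WT, and each knockout minus WT without knockdown. Points are edgeR estimates with bars of 1 standard error, filled where the adjusted p is below 0.05, and dotted lines mark a 2-fold change. Zfp809 lies furthest right with knockdown in WT (1.53) and in DNMT TKO without knockdown (1.48), and Zfp819 furthest left with knockdown in WT (-1.20).

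Of 68 other zinc finger genes of the KRAB type, listed by name, 39 rose and 5 fell by adjusted p with knockdown in WT, where 23.0% of all tested records rose and 22.7% fell. In DNMT TKO 29 rose and 5 fell (19.7% and 15.6% of all records), and in TET TKO 25 rose and 4 fell (15.3% and 15.1%). The median changes were 0.34, 0.24 and 0.23 log2. At 2-fold, 6 of the 68 were called up and 1 down in WT, where 10.8% of all records were called up and 6.54% down. Zfp560 rose by 2.65 ± 0.146 in WT, 2.68 ± 0.146 in DNMT TKO and 5.01 ± 0.202 in TET TKO (adjusted p = 1.7e-10, 3.7e-10 and 1.1e-11). Of 25 records of the KAP1 silencing pathway, with Trim28 among them, 4 rose and 14 fell by adjusted p in WT, 1 and 18 in DNMT TKO, and 2 and 9 in TET TKO, to be read against the same shares of all records. Their median changes were -0.29, -0.22 and -0.12 log2. At 2-fold, 1 was called up and 1 down in WT. The former was Suv39h1, another H3K9 methyltransferase, and the latter Trim28 itself. Suv39h1 rose by 1.21 ± 0.113 log2 in WT (adjusted p = 1.1e-07), 0.55 in DNMT TKO (0.0010) and 0.89 in TET TKO (0.00012).

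Of 11 tested imprinted genes at control regions known to be bound by these proteins, 8 rose and none fell by adjusted p with knockdown in WT, 3 rose and 1 fell in DNMT TKO, and 9 rose and none fell in TET TKO, again beside 23.0%, 19.7% and 15.3% of all records that rose. Their median changes were 0.64, 0.07 and 0.71 log2. Without knockdown, 7 of the 11 fell and 1 rose in DNMT TKO (median -0.36), where 23.1% of all records fell and 20.5% rose. In TET TKO 7 fell and 2 rose (median -0.55), where 13.1% fell and 14.1% rose. H19, an imprinted noncoding RNA, rose by 2.47 ± 0.223 in WT (adjusted p = 7e-08), 1.46 ± 0.413 in DNMT TKO (0.010) and 2.199 ± 0.266 in TET TKO (5.3e-06). Without knockdown it fell by 3.11 ± 0.343 in DNMT TKO (adjusted p = 8.7e-07), and its change of 0.22 in TET TKO did not pass (0.59).

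By the root mean square difference of the profile over the 6 group means of log2 CPM, each centred on its own mean, and among 13496 genes with at least 500 reads, the genes most like Zfp809 were Cryl1 (0.125 log2) and Aurkc (0.149), and those most like Zfp819 were Ldb1 (0.0557) and Vegfa (0.0671). None lies on the chromosome of the gene it resembles. Of the 8 tested genes within 100 kb of Zfp809, 1 was called up with knockdown in WT, and of the 7 within 100 kb of Zfp819, 1 was called down. Of all tested records, 10.8% were called up and 6.54% down in that contrast.

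The repeats that ZFP809, ZFP932 with GM15446, and ZFP708 are known to bind were counted as families, summing reads over all copies. Numbers of copies are those of annotated entries, and an interrupted element can hold more than 1 entry. MMVL30-int, the internal part of VL30 elements and a target of ZFP809 (408 copies), lay at 51.5 to 60.9 CPM in WT shEmpty and 115 to 123 in WT shKap1. In DNMT TKO it lay at 19.6 to 23.7 CPM and with knockdown at 87.0 to 121, and in TET TKO at 37.5 to 38.7 and 104 to 105. Without knockdown the family was thus lowest in DNMT TKO. Zfp809 itself was 2.80-fold higher there than in WT, and its part in the level of the family was not tested. MMVL30-int rose with knockdown by 1.07 ± 0.0983 log2 in WT (adjusted p = 1.2e-08), 2.17 ± 0.103 in DNMT TKO (2.3e-13) and 1.45 ± 0.122 in TET TKO (2.1e-09). The effect in DNMT TKO was larger than in WT by 1.11 ± 0.14 (adjusted p = 9.1e-06). Without knockdown MMVL30-int fell by 1.34 ± 0.102 in DNMT TKO (adjusted p = 2.1e-09) and by 0.57 ± 0.112 in TET TKO (0.00092). RLTR6-int, the other ZFP809 family (959 copies), rose by 1.80 ± 0.138, 1.55 ± 0.137 and 2.55 ± 0.173 in WT, DNMT TKO and TET TKO (adjusted p = 1.9e-07, 6.2e-07 and 3.9e-08), from 56.3 to 59.3 CPM to 154 to 231 in WT. It did not differ between genotypes without knockdown beyond the spread (adjusted p = 0.34 and 0.43). In TET TKO its rise was larger than in WT by 0.75 ± 0.212 (adjusted p = 0.034), a difference lost in 7 of 10 fits without 1 library (0.054 to 0.12). In DNMT TKO the difference passed only without WT shKap1 replicate 1 (-0.46, 0.010).

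MMERVK10C-int, a target of ZFP932 and GM15446 (1206 copies), had the largest change of the 5 families. It lay at 77.0 to 87.2 CPM in WT shEmpty and at 1152 to 1238 in WT shKap1, at 75.2 to 83.1 and 840 to 1352 in DNMT TKO, and at 85.3 to 90.4 and 1701 to 1740 in TET TKO. The shEmpty groups of the 3 genotypes were alike in level, and the shKap1 groups were more than 10 times higher. The rises were 3.88 ± 0.156, 3.72 ± 0.155 and 4.29 ± 0.195 log2 (adjusted p = 2.9e-09, 2.7e-09 and 5.4e-09). Those in DNMT TKO and TET TKO were not shown to differ from that in WT (-0.16, adjusted p = 0.68, and 0.41, adjusted p = 0.27). The DNMT TKO difference passed only without DNMT TKO shKap1 replicate 1 (-0.42, 0.0015). IAP-d-int (633 copies) rose by 1.96 ± 0.121, 1.77 ± 0.118 and 1.35 ± 0.142 log2 in WT, DNMT TKO and TET TKO (adjusted p = 2.9e-09, 4.5e-09 and 8.9e-07), from 25.7 to 29.2 CPM to 85.5 to 125 in WT. Unlike MMERVK10C-int it was also higher without knockdown in DNMT TKO, at 54.0 to 68.1 CPM (1.17 ± 0.12, adjusted p = 2.2e-06), and in TET TKO, at 81.1 to 87.0 CPM (1.61 ± 0.13, adjusted p = 3.9e-07). Its rise in TET TKO was smaller than in WT by 0.61 ± 0.183 (adjusted p = 0.036), lost in 7 of 10 fits without 1 library (0.069 to 0.12).

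RMER19B, the ZFP708 family (5201 copies), barely moved in WT, from 107 to 110 CPM to 111 to 123. It lay at 78.6 to 81.1 CPM in DNMT TKO and 105 to 120 with knockdown, and at 97.0 to 109 in TET TKO and 133 to 138 with knockdown. The WT change of 0.13 ± 0.0655 log2 did not pass (adjusted p = 0.11), except without WT shKap1 replicate 1 (0.19, 0.030), while the rises of 0.46 ± 0.0658 in DNMT TKO (2.0e-06) and 0.40 ± 0.0801 in TET TKO (0.00016) did. The difference between DNMT TKO and WT was 0.33 ± 0.0928 (adjusted p = 0.018), lost in 8 of 12 fits without 1 library (0.050 to 0.14). Of the 896 families tested, 41.5% rose by adjusted p with knockdown in WT, 47.7% in DNMT TKO and 48.1% in TET TKO, and 5.02%, 2.57% and 2.57% fell. For the differences between genotypes these shares were 8.26% larger and 3.68% smaller in DNMT TKO, and 13.1% larger and 1.79% smaller in TET TKO. Without knockdown, 10.8% of families were higher and 22.3% lower in DNMT TKO than in WT, and 8.59% and 6.92% in TET TKO.

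**Figure D3:**
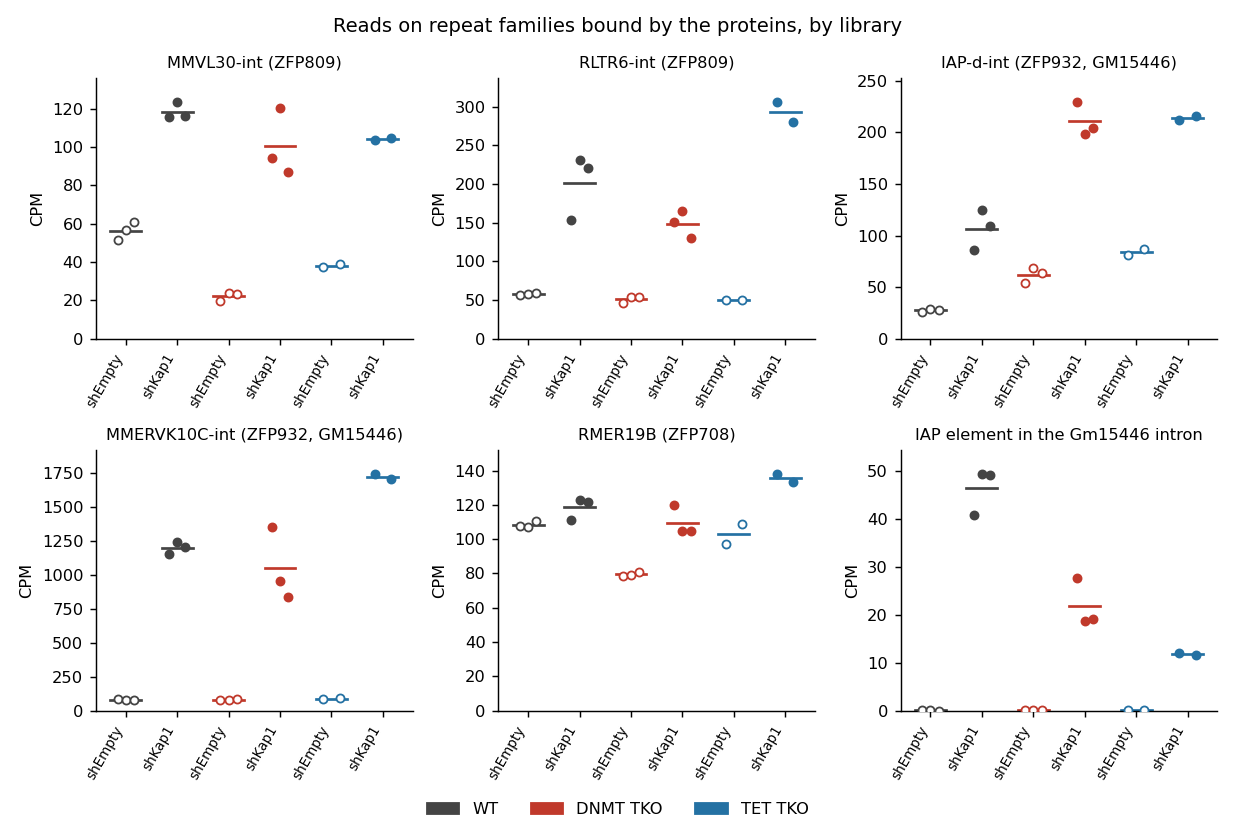
Summed level of 5 repeat families bound by ZFP809, by ZFP932 and GM15446, and by ZFP708, and of the IAP element in the Gm15446 intron, in CPM on axes that start at 0 (points are RNA libraries, lines are group means). MMVL30-int is lowest in DNMT TKO shEmpty (19.6 to 23.7 CPM), MMERVK10C-int goes from at most 90.4 to at least 840 CPM with knockdown, and the IAP element has reads almost only with the Kap1 hairpin.

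KAP1 regions and H3K9me3 regions came from the study's earlier ChIP-seq of ES cells and carry no replicate spread. KAP1 regions overlapped the span of 2 of the 9 records, Gm15446 and Zfp445, against 15.3% of all tested records. With 5 kb added on both sides Zfp568 joined them (3 of 9, against 21.3%). H3K9me3 regions classed by the authors as dependent on KAP1 overlapped 3 of the 9, Gm15446, Zfp809 and Zfp445 (7.96% of all), and with 5 kb added also Zfp932 (4 of 9, against 11.3%). None overlapped H3K9me3 independent of KAP1 (0.620% of all). No KAP1 or H3K9me3 region lay within 5 kb of Zfp57, Zfp819 or either Zfp708 record. The counts over the gene span did not change when at least 50% of a region had to lie inside it.

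In Zfp809 the H3K9me3 region covered intron sequence from 1327 to 3725 bp after the gene start (mm9 chromosome 9, 22031601 to 22033999). Transposable elements made up 92.7% of it and LTR elements 79.8%. Those LTR elements were RLTR1E_MM, MMVL30-int, RLTR6B_Mm, LTRIS2 and MERV1_LTR. Zfp809 was the gene of the 8 that rose most with Kap1 knockdown in WT. Under KAP1-dependent H3K9me3 it carries fragments of MMVL30-int, a family to which its own protein is known to bind. No KAP1 region was listed over this H3K9me3 region. Whether ZFP809 binds these fragments was not tested, nor was their part in the rise. Few reads came from these fragments. The 832 bp MMVL30-int piece, on the strand opposite to the gene, had 1 read in all 16 libraries, and the 541 bp RLTR6B_Mm piece, on the gene's strand, had 35.

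In Gm15446 a KAP1 region of 4112 bp (mm9 chromosome 5, 110362524 to 110366635) and an H3K9me3 region of 5799 bp (110362201 to 110367999) lay inside the gene, which starts at 110352419 on the plus strand. LTR elements covered 85.6% of the KAP1 region, chiefly 1 intronic IAP element of 3331 bp (IAPLTR2_Mm with IAPEz-int, 110363048 to 110366378) on the minus strand, opposite to the gene. Its reads were counted by strand. In shEmpty it had 2, 2 and 0 reads in WT, 1, 3 and 6 in DNMT TKO, and 4 and 5 in TET TKO. In shKap1 it had 777, 1139 and 922 reads in WT (40.7, 49.3 and 49.1 CPM), 574, 397 and 519 in DNMT TKO (27.6, 18.7 and 19.2 CPM), and 259 and 226 in TET TKO (12.0 and 11.6 CPM). Every shKap1 library thus held at least 226 reads where no shEmpty library held more than 6. The level was highest in WT and lowest in TET TKO, while the estimated rise of Gm15446 itself was smallest in WT and largest in TET TKO. The order of the Gm15446 rises is not resolved. Its DNMT TKO difference from WT did not pass (edgeR adjusted p = 0.080), and its TET TKO difference depended on the libraries used, as given above. The values of the IAP element are those of a single copy, given without a test, and a relation to Gm15446 was not tested. Across all repeats that lie wholly inside exons, 1.09% of reads were counted on repeats of the strand opposite to the gene, so the strand of these counts is that of the transcript.

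The RefSeq promoter of Gm15446 is placed inside the gene model used for counting, at the edge of this H3K9me3 region and next to the IAP element. It is the only one of the 12 member promoters that lies in an H3K9me3 region, and it lies in no H3K4me3 region. It holds 5 CpGs, shown in capitals. The 5′ start of the counted model has an H3K4me3 region of its own.
Gm15446 promoter, chr5:110362332-110362631, plus strand: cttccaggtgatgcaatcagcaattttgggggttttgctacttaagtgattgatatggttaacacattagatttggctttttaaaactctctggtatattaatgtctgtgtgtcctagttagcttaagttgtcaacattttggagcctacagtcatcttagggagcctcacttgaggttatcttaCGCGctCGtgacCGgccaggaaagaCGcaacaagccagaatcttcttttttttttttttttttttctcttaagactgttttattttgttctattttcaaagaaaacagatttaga

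Zfp445, on the minus strand of chromosome 9 (mm9, 122761032 to 122771246), carried 2 adjacent KAP1 regions in an intron, 1136 to 2723 bp and 2725 to 3554 bp after the annotated start. LTR elements covered 91.9% and 51.9% of them. A KAP1-dependent H3K9me3 region of 7799 bp spanned most of the gene. The H3K4me3 region nearest to it lay from -4245 to -2460 bp relative to the annotated start and held its RefSeq promoter. The H3K9me3 region began 47 bp after that start, so the 2 regions lay apart. Near Zfp568 (chromosome 7, 30768974 to 30813301) a KAP1 region of 448 bp lay about 4 kb before the start, mostly in an RLTR6_Mm element. Near Zfp932 (chromosome 5, 110425540 to 110439430) an H3K9me3 region of 8599 bp lay after the gene, from 110444201 to 110452799. Repeats were read only up to 5 kb past each gene, so the repeat content of most of this region was not measured.

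H3K4me3, a mark of active promoters, was within 1 kb of the gene start of 5 of the 9 records (Zfp568, Zfp819, Gm15446, Zfp932 and Zfp809), against 69.3% of all tested records. With a 2 kb window Zfp57 joined them (70.7% of all). Zfp57 lay under a broad H3K4me3 region of 8858 bp that began 1033 bp after the annotated start and lay over or within 1 kb of 12 of its 13 annotated transcript starts. The longer Zfp708 record had its H3K4me3 region 15889 to 17499 bp after the annotated start, over its second RefSeq promoter. H3K27me3, the mark of Polycomb repression, was at the start of none of the 9, against 15.9% of all.

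**Figure D4:**
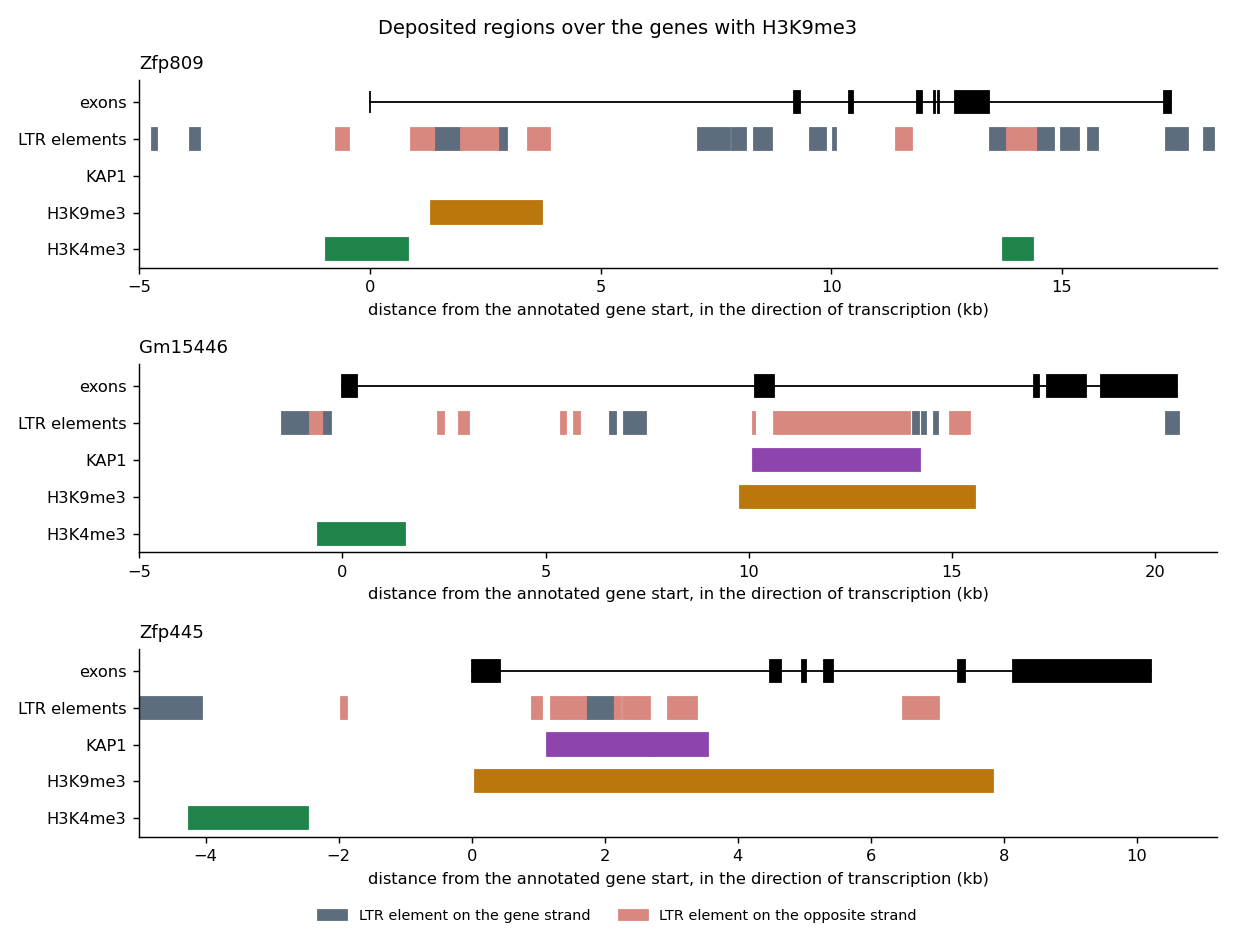
Maps of Zfp809, Gm15446 and Zfp445, the 3 genes with H3K9me3 inside them, with exons, LTR elements by strand, and KAP1, H3K9me3 and H3K4me3 regions, in kb from the gene start in the direction of transcription. H3K9me3 lies over LTR elements of the first Zfp809 intron (from 1327 to 3725 bp), over the IAP element of Gm15446 and over most of Zfp445.

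Finally, 5hmC was measured in WT cells by immunoprecipitation against input. A single pair of immunoprecipitated and input libraries per hairpin was used, so each change below carries a 95% interval for counting error only and no replicate check. The 4 libraries held 4590132 to 8817570 reads in all region sets. The median change with knockdown was 0.64 log2 over 25992 KAP1 regions (quartiles 0.06 to 1.20) and 0.66 over 14390 KAP1-dependent H3K9me3 regions (0.15 to 1.12), against 0.18 in KAP1-independent H3K9me3, 0.39 in H3K4me3 and 0.27 in H3K27me3 regions. Over 28 imprinting control regions, a set not limited to those bound by KAP1, the median was 0.91.

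In the H3K9me3 region after Zfp932 the 5hmC reads went from 155 to 497 while input went from 182 to 220, a change of 1.74 log2 (interval 1.35 to 2.12). In the Gm15446 KAP1 region they went from 195 to 588 with input at 79 and 102, a change of 1.56 (1.08 to 2.04), and in its H3K9me3 region the change was 1.45 (1.03 to 1.86). All 3 changes lie above the upper quartile of their region set, and their intervals exclude 0. The KAP1 region of Gm15446 lies inside its H3K9me3 region, so these 2 changes share most of their reads. Both Gm15446 regions are mostly LTR sequence, and the study's methods describe no filter for uniquely mapped reads in the 5hmC mapping. Reads from other copies of the IAP element therefore cannot be told apart from those of this locus. The repeat content of most of the region after Zfp932 was not measured, so it is not known whether the same limit holds there. In the Zfp809 region 5hmC reads went from 101 to 176 with input at 40 and 57, a change of 0.63 whose interval includes 0 (-0.05 to 1.30). In Zfp445 the H3K9me3 region went from 267 to 319 with input at 155 and 198, a change of 0.24 (-0.14 to 0.62), and its KAP1 regions changed by 0.55 (-0.23 to 1.33) and 0.14 (-0.99 to 1.28). The KAP1 region near Zfp568 had 27 input reads in all and a change of 0.68 (-0.63 to 2.0). In the Zfp809 region, the Zfp568 region and the KAP1 regions of Zfp445 a change was therefore not detectable at this depth. The H3K9me3 region of Zfp445 held 353 input reads, against 402 in the Zfp932 region, and its interval, which includes 0, ends below the median of 0.66 of its region set. In the H3K4me3 regions at the annotated starts of Zfp809 and Zfp819 the changes were 0.14 (-0.91 to 1.18) and 0.12 (-0.83 to 1.08). In a second H3K4me3 region of Zfp819, 1940 to 3098 bp after the start, 5hmC reads went from 15 to 35 with input at 28 and 30, a change of 1.41 whose interval excludes 0 (0.29 to 2.53). Scaled to reads in H3K4me3 regions instead, every change is about 0.39 lower, the interval of this second Zfp819 region includes 0, the Zfp932 region is at 1.35, the Zfp445 H3K9me3 region at -0.15 and its KAP1 region from 2725 bp at -0.25.

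**Figure D5:**
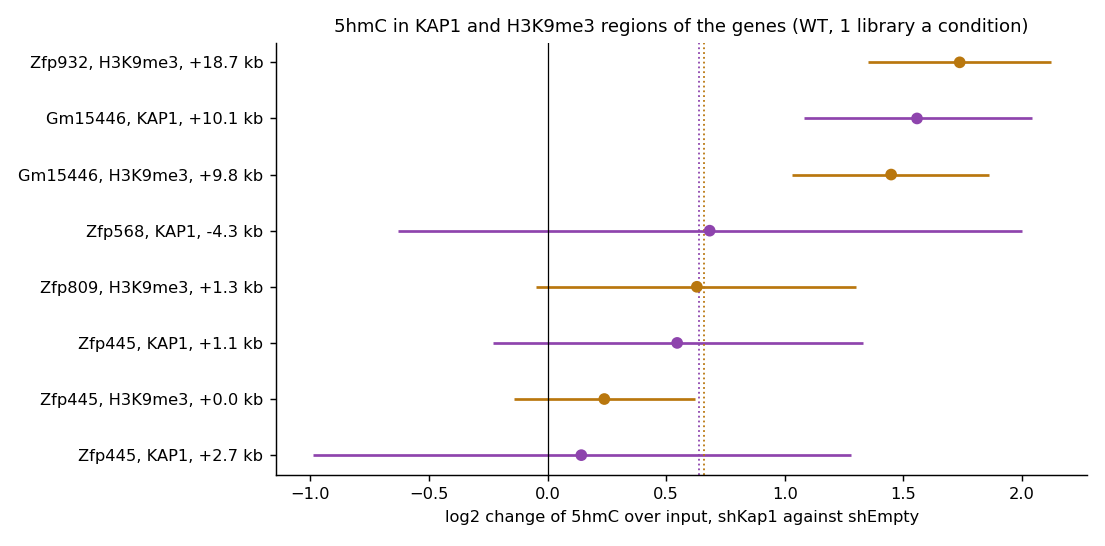
Change of 5hmC over input with Kap1 knockdown in WT cells, in log2 (x axis), for each KAP1 (purple) and H3K9me3 (orange) region over the member genes or within 5 kb of them, with 95% intervals for counting error from single libraries. Dotted lines are the medians of all KAP1 (0.64) and KAP1-dependent H3K9me3 (0.66) regions. The region after Zfp932 (1.74) and those in Gm15446 (1.56 and 1.45) lie clear of 0, and the intervals at Zfp809, Zfp445 and Zfp568 include it.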

How the data were processed

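Gene counts and repeat counts of 16 RNA-seq libraries, 5hmC reads in region sets and ChIP-seq region lists were used as deposited. The authors aligned RNA reads to mm9 with HISAT2 2.0.1, kept uniquely mapped reads and made raw gene counts with featureCounts (1.5.1 in their processing notes, 1.5.0-p1 in the file header) by strand with a mapping quality of at least 10. They made repeat counts and 5hmC read counts with bedtools 2.25 after HISAT2 and Bowtie2 2.2.1, respectively, and deposited H3K4me3 and H3K27me3 regions with a peak score from MACS 1.4 and SICER 1.1. Depth was 18108431 to 29373696 reads on genes per library.

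Ensembl identifiers were matched to symbols for 37205 of 37991 records (97.9%). Records with at least 16 reads over the 16 libraries were tested with edgeR 4.0.16 (quasi-likelihood, TMM, R 4.3.3) in 1 fit of the 6 groups, with Benjamini-Hochberg adjustment, an adjusted p threshold of 0.05 and, for a call, a 2-fold change. SE is the size of the log2 change over the square root of the F statistic. CPM uses TMM-scaled library sizes, and RPKM the counted exon length. The fit was tested on simulated counts with 200 changed genes.

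The alternatives were DESeq2 1.42.0 (size factors and Wald test), no filter on reads, limma 3.58.1 with voom, a replicate block, a fit of only the groups compared, no fold threshold, and leaving out each library. The study's methods describe the replicates as independent experiments but do not say whether a number marks the same experiment across groups. Deviations from the group means correlated between same-numbered libraries in WT (r 0.364 to 0.526 over 3 pairs), in DNMT TKO (0.242 to 0.613) and between these genotypes (0.116 to 0.55). Those numbers were therefore taken to pair the libraries, but not in TET TKO (-0.041, the same value in both pairs since each group has 2 libraries). The main fit has no block, so its p-values and the counts of calls leave this pairing out. The replicate block is given as an alternative only.

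The members and gene lists were chosen with earlier results of these data known. All 8 genes are named in every comparison. Also named are Trim28, the 6 Dnmt and Tet genes as a check of the genotypes, the 2 nearest profiles of each called gene and at most 2 genes a list. The other KRAB zinc finger genes were listed by name. The comparisons of repeat families between genotypes and without knockdown were added after seeing the data. 5hmC changes are log2 of immunoprecipitated over input reads, with a pseudocount of 1, at least 10 input reads, each library scaled by its summed reads over every region set. The second 5hmC replicate (4 libraries) was left out because its labels and file names give different roles. Promoters are RefSeq sequences placed by exact match to mm9.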

Additional observations from a re-analysis of the deposited data

Results flagged for a closer look

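Some effects of the Kap1 knockdown differed between genotypes by the interaction term of the edgeR quasi-likelihood fit, with adjusted p over all records or families. For Zfp809 the change was smaller than in WT in both knockouts, by -0.83 log2 in DNMT TKO (adjusted p = 0.0011) and by -1.06 in TET TKO (adjusted p = 0.0010). In both knockouts its level was already higher without knockdown, and Trim28 remained higher in DNMT TKO shKap1 (427 CPM) than in WT shKap1 (165 CPM) but not in TET TKO shKap1 (166 CPM). The part of either in the difference was not tested. For Gm15446 the TET TKO rise exceeded that in WT by 0.46 (adjusted p = 0.033), a difference lost in 9 of 10 fits without 1 library.

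MMVL30-int rose more in DNMT TKO than in WT by 1.11 log2 (adjusted p = 9.1e-06), as did RMER19B by 0.33 (adjusted p = 0.018, lost in 8 of 12 fits without 1 library). In TET TKO, IAP-d-int rose less than in WT, by -0.61 (adjusted p = 0.036), and RLTR6-int more, by 0.75 (adjusted p = 0.034), and each of these was lost in 7 of 10 fits without 1 library.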

How the results depend on the processing

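The calls at 2-fold changed under no other normalization, filter, test or block. With no fold threshold the number of the 9 records called went from 2 to 6 with knockdown in WT, from 0 to 6 in DNMT TKO and from 0 to 6 in TET TKO. It went from 0 to 1 and from 1 to 2 for the differences of DNMT TKO and TET TKO from WT, and from 1 to 6 and from 0 to 4 for the knockouts without knockdown. Leaving out 1 library gave 1 to 2 calls in WT (1 without WT shEmpty replicate 1) and 0 to 1 for the DNMT TKO difference (1 without DNMT TKO shKap1 replicate 2).

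The adjusted p of the 63 single-gene results kept its side of the threshold and direction in 61 with DESeq2 size factors, 58 without a filter, 60 with limma-voom, 60 with DESeq2's Wald test, 60 with the replicate block and 57 in fits of only the groups compared. The replicate block moved Zfp57 past the threshold with knockdown in WT (-0.26, 0.0074) and without knockdown in TET TKO (-0.24, 0.041), and the second Zfp708 record with knockdown in TET TKO (0.049), and changed no other call. In TET TKO the numbers were not taken to pair the libraries. Of 441 results without 1 library, 380 kept both, 41 lost the threshold, 12 gained it and 8 turned direction. Leaving out a TET TKO library leaves its arm with 1 library, assumed to vary like the other groups. Without a filter, 5 calls were lost: Zfp819 with knockdown in DNMT TKO (0.068) and TET TKO (0.070), Zfp708 with knockdown in DNMT TKO (0.058), the second Zfp708 record without knockdown in DNMT TKO (0.056) and the TET TKO difference of Gm15446 (0.074). In fits of only the groups compared, 4 were lost: Zfp708 with knockdown in DNMT TKO (0.075) and, without knockdown, the second Zfp708 record (0.074) and Zfp445 (0.055) in DNMT TKO and Zfp932 in TET TKO (0.052). The cause was not tested.

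Directions turned only for changes that did not pass. Over libraries left out, Zfp57 with knockdown in DNMT TKO ranged from -0.23 to 0, the second Zfp708 record's DNMT TKO difference from -0.06 to 0.11, Zfp819 without knockdown from -0.15 to 0.19 in DNMT TKO (0.01 with limma-voom) and from 0 to 0.32 in TET TKO. RMER19B without knockdown in TET TKO ranged from -0.17 to 0.01, and MMERVK10C-int without knockdown in DNMT TKO from -0.07 to 0.04 (0 with DESeq2 size factors). RMER19B with knockdown in WT ranged from 0.11 to 0.19. Scaling 5hmC to H3K4me3 reads gave 1.35 for the Zfp932 region and -0.15 for the Zfp445 H3K9me3 region, and turned the Zfp445 KAP1 region from 2725 bp (0.14, interval including 0) to -0.25. With at least 30 input reads required, the Zfp568 region and that Zfp445 KAP1 region gave no value. Depth limits the second Zfp708 record most, and 5hmC regions with few input reads.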
